A study of Mus musculus with 4 samples.

Results

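The C-type lectin receptors described here are 9 genes of myeloid cells, namely Cd209a, Clec10a, Clec4d, Clec4e, Clec4n, Clec7a, Clec12a, Clec5a and Clec4a2. They were taken by symbol: every probe set that the platform annotation assigns to a member was used. Of the 9 genes, 8 were read by a probe set of their own, out of 18193 such genes in all, and these 8 had 11 of the 45037 probe sets. Clec12a, an inhibitory receptor, is not analysed here. All 11 probe sets entered the fit, with no filter on low values, and all 11 had a mean level above 4.42, the median over probe sets. RNA of CD11b+ cells isolated from mouse spleen was hybridised to 4 single-colour Affymetrix MOE430 2.0 arrays. Of these, 2 arrays held pools of mice under repeated social threat, labelled as a high-threat environment, and 2 held pools of control mice, labelled as a low-threat environment. Each pool joined 5 mice, so the spread between mice is not seen. The strain, the sex and the age of the animals are not given in the sources used here.

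C-type lectin receptors are surface proteins of phagocytes and dendritic cells that bind sugars and other ligands of microbes and of damaged cells. Some take up what they bind for antigen presentation. Others signal through the kinase Syk and the adaptor CARD9, either by a tyrosine motif in their own tail or by pairing with the adaptor chains FcR gamma and DAP12, and a further group carries an inhibitory tyrosine motif (ITIM) that recruits phosphatases. In the spleen they are found on conventional dendritic cells, monocytes, macrophages and neutrophils, in different combinations.

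The members did not move together. The endocytic receptors Cd209a and Clec10a fell under social threat, by 2.00 and 1.26 on the log2 scale. The inhibitory receptor Clec4a2 and the DAP12-coupled receptor Clec5a rose by 0.76 and 0.46. The Syk-coupled receptors for fungal and mycobacterial ligands differed little: Clec4n, Clec4d and Clec7a fell by 0.23, 0.15 and 0.13, and Clec4e was not called. Read by the brightest probe set of each gene, 5 of 8 members fell and 2 rose, where 11.7% of all genes fell and 9.4% rose. Among the 4737 genes at least as bright as the dimmest member, a comparison added after the values were seen, 23.9% fell and 20.2% rose. The median log2 difference of the 8 members was -0.14, and that of all genes was -0.02. Over the 11 probe sets, 6 fell and 3 rose, where 8.67% and 7.09% of the whole table did. The threshold was a Benjamini-Hochberg adjusted p of 0.05 over the 45037 probe sets, in limma's moderated test. With 2 pools a group, the calls lean on limma's sharing of variance between probe sets, and without that sharing the linear model called 0 probe sets of the table, with 8281 at an unadjusted p under 0.05.

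**Figure D1:**
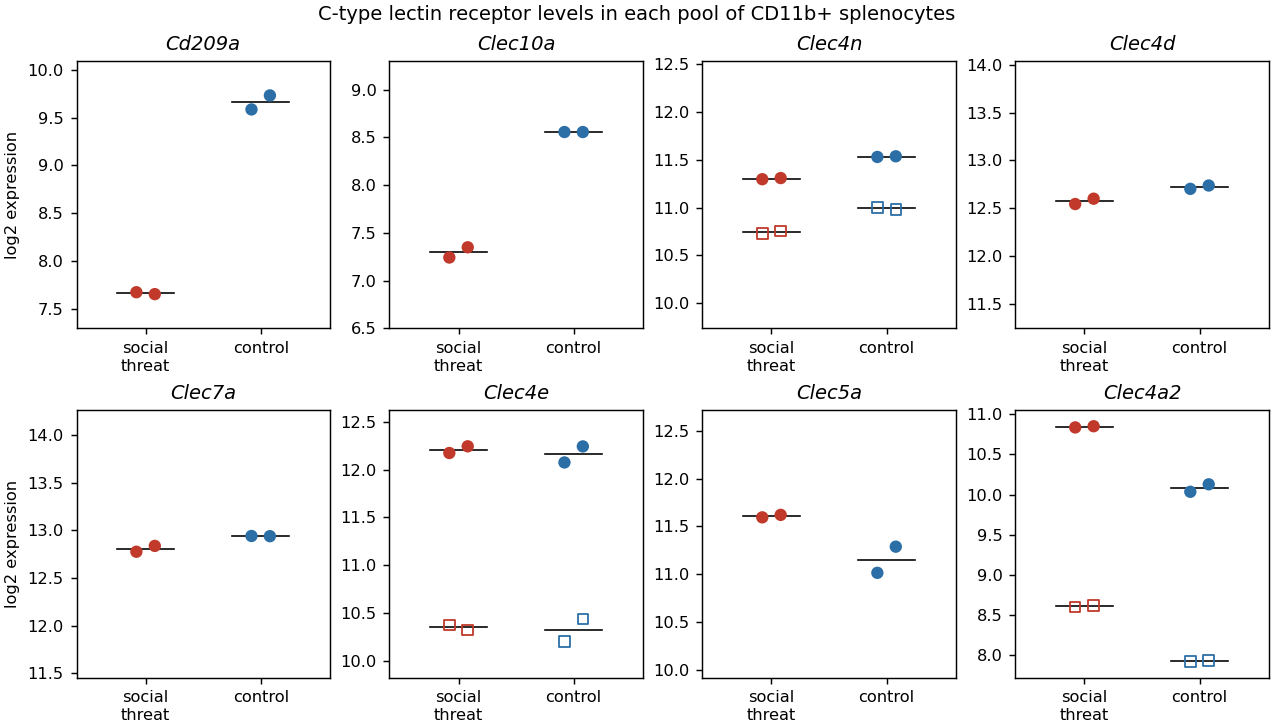
Log2 expression of the 8 measured receptors in each pool, with social threat on the left and control on the right of each panel, ordered from the largest fall to the largest rise. Filled circles are the brightest probe set of a gene, open squares a second one, and bars are means of 2 pools. Cd209a stands at 7.66 ± 0.01 in social threat and at 9.66 ± 0.10 in control pools (SD, n = 2), while the pools of Clec4e overlap.

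The arrays were alike in scale, with medians of 4.41 to 4.43. Pearson's r over probe sets was 0.998 between the social threat pools and 0.997 between the control pools, against 0.989 to 0.990 across groups. Itgam, which encodes the CD11b antigen used for isolation, stood at 11.64 and 11.59 in social threat pools and at 10.47 and 11.01 in control pools, and it rose by 0.88 (SE 0.13, limma adjusted p = 0.0015). Markers of other cells were also read above the median level in both groups. The 7 measured B cell markers averaged 7.34 to 7.39 in social threat pools and 8.31 to 8.33 in control pools, and the 7 T cell markers averaged 6.04 to 6.11 in social threat pools and 7.15 to 7.20 in control pools.

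Sequences upstream of the start site are shown for the 3 members with the largest differences among those in the promoter table, since these genes moved apart. They run over 250 bases up to the annotated start, on the gene's own strand, from RefSeq on GRCm38.p6. The window of Cd209a is chr8:3748985-3749234 on the minus strand, that of Clec4a2 is chr6:123122440-123122689 on the plus strand, and that of Clec5a is chr6:40585806-40586055 on the minus strand. Capitals mark matches, on either strand, to AGGAAG, a form of the site bound by the myeloid factor PU.1. Shorter and other forms of that site were not searched.
Cd209a: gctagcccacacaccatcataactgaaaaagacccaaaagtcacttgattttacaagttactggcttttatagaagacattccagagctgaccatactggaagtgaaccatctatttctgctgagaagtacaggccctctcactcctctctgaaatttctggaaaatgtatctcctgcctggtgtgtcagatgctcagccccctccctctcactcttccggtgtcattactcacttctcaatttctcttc
Clec4a2: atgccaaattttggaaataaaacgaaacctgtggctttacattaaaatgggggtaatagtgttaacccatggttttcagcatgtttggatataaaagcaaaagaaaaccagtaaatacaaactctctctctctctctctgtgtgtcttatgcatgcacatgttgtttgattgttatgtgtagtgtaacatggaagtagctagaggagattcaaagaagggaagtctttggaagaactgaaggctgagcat
Clec5a: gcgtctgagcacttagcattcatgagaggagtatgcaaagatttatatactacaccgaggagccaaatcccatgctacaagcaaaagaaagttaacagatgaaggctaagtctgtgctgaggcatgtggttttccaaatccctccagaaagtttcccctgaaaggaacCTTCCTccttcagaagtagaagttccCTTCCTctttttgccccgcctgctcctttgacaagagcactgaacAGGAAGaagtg
The Clec5a window holds 3 matches to this string in total over both strands, and those of Cd209a and Clec4a2 hold 0. That does not show that the latter windows lack a PU.1 site. AGGAAG or its reverse complement occurs at least once in 29.5% of the 32851 upstream windows of the table. The share of windows with several matches was not counted. Also searched on both strands were TTGCNNAA, a C/EBP site found in 9.56% of windows, and TGANTCA, an AP-1 site found in 6.75%. Neither matched in the windows shown. Clec4e, Clec4d and Clec7a are the other analysed members with a window. That of Clec4e matched the C/EBP letters once, as TTGTGCAA 66 to 59 bases before the start. The window of Clec4d matched AGGAAG once, on the other strand, 241 to 236 bases before the start. Clec7a had no match to any of these strings.

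Cd209a, a mouse homologue of the human dendritic cell lectin DC-SIGN, had the largest difference of the set. Its log2 levels were 7.67 and 7.65 in social threat pools, against 9.59 and 9.73 in control pools. The groups stood 1.91 apart at their nearest pools, while the pools of a group differed by 0.02 in social threat and 0.15 in control. The log2 difference was -2.00 (SE 0.07, 95% interval -2.16 to -1.83, limma adjusted p = 2.83e-07). No other gene among the 18193 had a lower difference by its brightest probe set. Clec10a, a galactose-binding receptor of dendritic cells and macrophages also called MGL1, had log2 levels of 7.24 and 7.35 in social threat pools and of 8.56 in both control pools. Its groups did not overlap either, with a difference of -1.26 (SE 0.08, 95% interval -1.44 to -1.08, limma adjusted p = 6.75e-06). On the linear scale the difference was 3.99-fold for Cd209a and 2.40-fold for Clec10a, both lower in social threat. Leaving out any single pool kept Cd209a between -2.07 and -1.92 and Clec10a between -1.31 and -1.21, and both were called each time.

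Conventional dendritic cell markers fell, as the endocytic receptors did. In that list 11 of 12 measured genes fell and 0 rose, with a median log2 difference of -1.01 beside -0.02 for all genes. Its mean level was 7.63 to 7.73 in social threat pools and 8.60 to 8.62 in control pools, with 1 member below the median level of all probe sets. Within it Ccr7, a homing receptor gene, fell by 1.41 (SE 0.05). Fscn1, which encodes the actin bundler fascin, fell by 1.39 (SE 0.06), with a mean of -0.62 over its 4 probe sets. Dpp4, which encodes CD26, fell by 1.36 (SE 0.08), and Cd83 by 1.22 (SE 0.04). Whether these falls came from dendritic cells or from other cells was not tested. Red pulp macrophage markers fell for 9 of 12 genes (median -0.47, mean level 9.46 to 9.48 in social threat and 9.95 to 10.00 in control pools). Within that list the receptor gene Axl fell by 1.19 with a mean of -0.65 over its 2 probe sets, the prostaglandin-degrading Hpgd by 0.92, and the complement genes C1qa and C1qb by 0.60 and 0.53. Other lists fell as well, with medians of -1.11 (B cell), -0.96 (T cell), -0.71 (NK cell) and -0.62 (plasmacytoid dendritic cell). The neutrophil, erythroid and platelet lists had positive medians. In bulk RNA, fewer cells of a type and less RNA of the gene in each cell cannot be told apart. The part of any of these lists in the receptors' fall was not tested.

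Clec4a2 encodes the dendritic cell immunoreceptor DCIR, whose ITIM recruits the phosphatases SHP-1 and SHP-2. Its brighter probe set read 10.84 and 10.85 in social threat pools, against 10.03 and 10.13 in control pools. The second read 8.60 and 8.62 in social threat pools, against 7.92 and 7.93 in control pools. Both probe sets rose with no overlap between groups, by 0.76 (SE 0.05, limma adjusted p = 6.66e-06) and by 0.68 (SE 0.07, limma adjusted p = 0.000155). Another probe set is shared with Clec4b1, an activating relative that pairs with FcR gamma, and so names neither gene. It read 11.02 and 10.98 in social threat pools, against 10.66 and 10.59 in control pools, a difference of 0.37 (SE 0.04). The probe set of Clec4b1 alone went the other way, with 6.74 and 6.69 in social threat pools and 7.75 and 7.71 in control pools. Clec4b1 fell by 1.02 (SE 0.09, limma adjusted p = 4.87e-05), so the difference of the shared probe set lay between those of the 2 genes.

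Clec5a, also called MDL-1, signals through DAP12 and is known from neutrophils and monocytes. It stood at 11.60 and 11.62 in social threat pools, against 11.01 and 11.29 in control pools. The groups did not overlap, but the control pools lay 0.27 apart, nearly as far as the 0.31 between the nearest pools of the groups. Clec5a rose by 0.46 (SE 0.07, 95% interval 0.29 to 0.62, limma adjusted p = 0.00215). The difference was 0.32 without control pool 1 and 0.59 without control pool 2, called both times. The control pool with the lower Clec5a also had the lower Itgam, at 10.47 against 11.01, and a link between these genes was not tested. Without limma's variance trend, which lets the expected variance follow the level, the adjusted p of Clec5a was 0.0569, and over its 10 alternatives it ran from 1.02e-05 to 0.334.

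**Figure D2:**
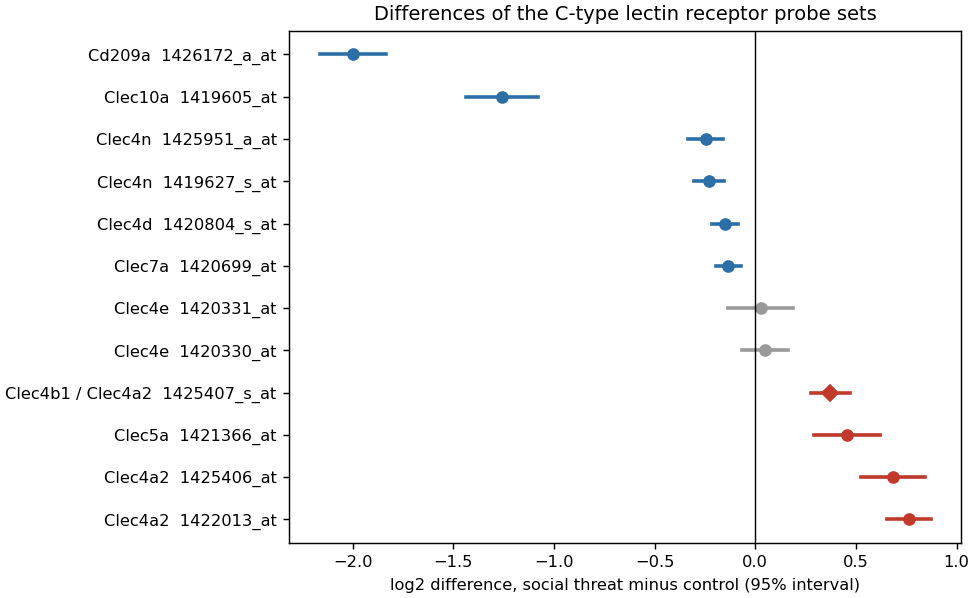
Log2 difference of each receptor probe set, social threat minus control, with limma's 95% interval as a line. Red marks a rise, blue a fall and grey no call, and the diamond is the probe set shared by Clec4b1 and Clec4a2. The intervals of Cd209a (-2.16 to -1.83) and Clec10a (-1.44 to -1.08) lie apart from all others, and those of both Clec4e probe sets include 0.

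Most neutrophil genes rose, as Clec5a and Clec4a2 did, and so did most erythroid and platelet markers (medians 1.59 and 0.66). All 13 measured immature neutrophil granule genes rose, with a median of 1.94, and the list averaged 11.77 to 11.78 in social threat pools and 9.37 to 9.46 in control pools. Mpo, the myeloperoxidase of primary granules, rose by 4.85 (SE 0.09), the granule proteases Ctsg and Elane by 4.81 (SE 0.10) and 4.31 (SE 0.10), and Ms4a3 by 3.95 (SE 0.11). Ctsg read 4.55 and 4.65 in control pools, near the median level, where background can set the size of the rise. Mature neutrophil markers rose for 6 of 9 genes and fell for 2, with a median of 0.24 and mean levels of 12.51 to 12.52 in social threat and 12.17 to 12.19 in control pools. Among them Mmp8, the neutrophil collagenase, rose by 1.34 (SE 0.03), and Mmp9, a gelatinase, rose by 0.58 (SE 0.03). The formyl peptide receptor gene Fpr2 rose by 0.57 (SE 0.03) and the chemokine receptor gene Cxcr2 by 0.45 (SE 0.08). The 2 that fell were Il1r2, by 0.20 (SE 0.03), and Csf3r, by 0.14 (SE 0.03). Of 8 classical monocyte markers, 2 rose and 3 fell (median -0.17, mean level 10.78 to 10.79 in social threat and 10.88 to 10.94 in control pools). Patrolling monocyte markers fell for 5 of 8 (median -0.49, mean level 9.95 in each social threat pool and 10.35 to 10.45 in control pools). The part of any of these cells in the rise of Clec5a and Clec4a2 was not tested.

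Among the receptors that pair with FcR gamma, differences were small beside those above. Clec4n encodes Dectin-2, a receptor for fungal mannans. Its brighter probe set read 11.30 and 11.31 in social threat pools, against 11.53 and 11.54 in control pools. Its second read 10.73 and 10.76 in social threat pools, against 11.00 and 10.98 in control pools. Both fell without overlap, by 0.23 (SE 0.03, limma adjusted p = 0.00126) and 0.25 (SE 0.04, limma adjusted p = 0.00211). Clec4d, also called MCL, which forms a complex with Mincle, had levels of 12.54 and 12.60 in social threat pools and of 12.70 and 12.74 in control pools. It fell by 0.15 (SE 0.03, limma adjusted p = 0.00636), with 0.10 between the nearest pools of the groups.

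Clec4e encodes Mincle, the receptor for the mycobacterial glycolipid cord factor, and is known as an inducible gene of activated macrophages. Its brighter probe set read 12.18 and 12.25 in social threat pools, against 12.08 and 12.24 in control pools. The second read 10.37 and 10.32 in social threat pools, against 10.20 and 10.44 in control pools. The groups overlapped on both probe sets. The log2 difference was 0.05 (95% interval -0.06 to 0.16, limma adjusted p = 0.619) on the first and 0.03 (95% interval -0.13 to 0.19, limma adjusted p = 0.871) on the second. It depended on the control pools: without control pool 1 it was -0.03 and not called, and without control pool 2 it was 0.13 and called (limma adjusted p = 0.0287, in a range of 0.0287 to 0.953 over 10 alternatives).

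Clec7a, Dectin-1, binds beta-glucans of fungi and signals to Syk through a tyrosine motif of its own. Its levels were 12.78 and 12.84 in social threat pools, against 12.94 in both control pools. It fell by 0.13 (SE 0.03, limma adjusted p = 0.00784), and the groups stood 0.10 apart at their nearest pools. The calls of the small falls rested on the model. Without social threat pool 1 the adjusted p was 0.115 for Clec4d and 0.134 for Clec7a, and without the variance trend it was 0.32 for Clec4d, 0.37 for Clec7a and 0.13 for Clec4n. A quantile normalization of the deposited values reduced the difference of Clec7a to -0.10, with an adjusted p of 0.052. Over 10 alternatives the adjusted p ran from 0.0019 to 0.32 for Clec4d, from 0.00394 to 0.37 for Clec7a and from 0.000708 to 0.13 for Clec4n, and the direction was lower in each.

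By the nearest pools, 7 of 8 members had groups that did not overlap. The same held for 58.2% of all genes and for 79.5% of the 4737 genes at least as bright as the dimmest member. The count itself thus sets the receptors little apart from those 4737 genes. That set was not matched to the level of each member, and mean levels ran from 7.92 for Clec10a to 12.87 for Clec7a. By size, Cd209a, Clec10a and Clec4a2 differed by at least 1.5-fold, and the share of all genes that did so was not counted. In the order of all 18193 genes, Cd209a was the lowest difference and Clec10a the 30th lowest, while 498 genes had a rise at least as large as that of Clec4a2 and 961 one at least as large as that of Clec5a.

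Of the members, Clec4a2, Clec4n, Clec4d and Clec4e lie in 1 cluster of chromosome 6, in RefSeq's gene order on GRCm38.p6. This cluster, around the Dectin-2 gene Clec4n, holds 9 protein-coding genes, Clec4a1, Clec4a3, Clec4a4, Clec4b1, Clec4a2, Clec4b2, Clec4n, Clec4d and Clec4e in that order, and 6 of them had a probe set of their own. Neighbours differed in direction: Clec4a2 rose, while Clec4a3, Clec4b1, Clec4n and Clec4d fell and Clec4e was not called. Clec4b1 and Clec4a2, next to each other, had differences of -1.02 and 0.76 with intervals far apart. Clec4a3, a receptor of the DCIR family, fell by 0.20 (SE 0.04, limma adjusted p = 0.00561), with 11.26 and 11.31 in social threat pools and 11.46 and 11.51 in control pools. In the second cluster of the chromosome, from Clec12a to Olr1, 5 of 7 genes were read and Clec7a alone was called. Clec12b and Clec1a had mean levels of 3.81 and 4.02, below the median of all probe sets, where background limits what can be read. Nearby, Clec1b, the podoplanin receptor of platelets, and Olr1, a receptor for oxidised LDL, had differences of -0.15 (95% interval -0.32 to 0.02) and -0.01 (95% interval -0.19 to 0.18).

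**Figure D3:**
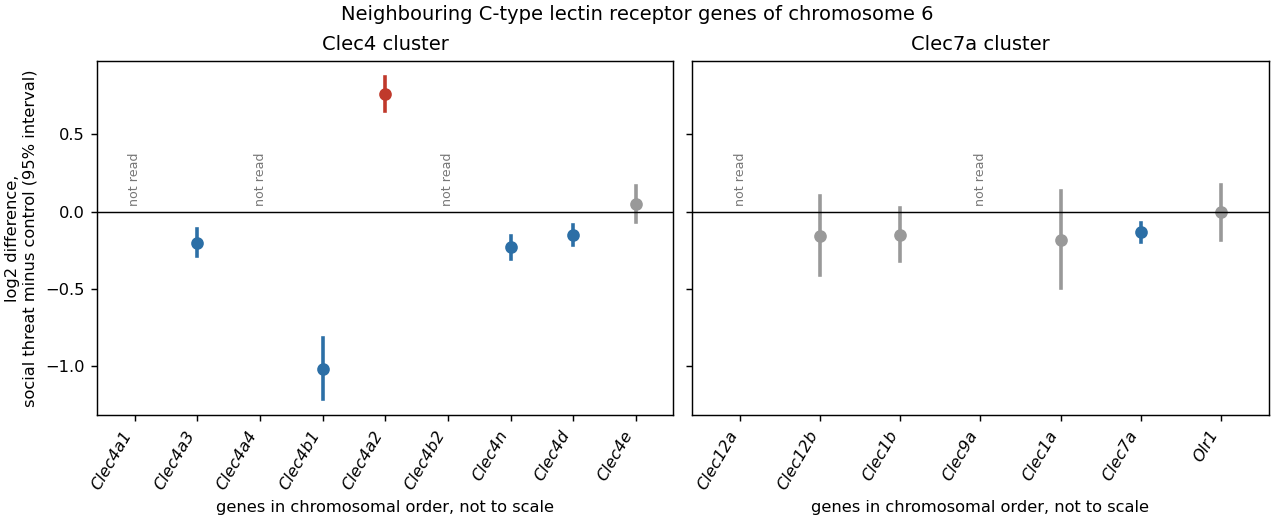
Log2 difference, social threat minus control, with limma's 95% interval, for the genes of the cluster around Clec4n (left) and of the cluster around Clec7a (right) on mouse chromosome 6, in chromosomal order. Red marks a rise, blue a fall and grey no call, and genes with no probe set of their own are written as not read. Clec4a2, at 0.76, stands between the nearest genes read on either side, Clec4b1 at -1.02 and Clec4n at -0.23.

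Of 29 other C-type lectin receptors measured, 10 fell and 1 rose, with a median of -0.20, and 12 of the 29 lay below the median level of all probe sets. The largest fall was that of Clec4b1, given above. Cd72, an inhibitory receptor of B cells, fell by 0.91 (SE 0.10), and Cd209b, a receptor of marginal zone macrophages, by 0.69 (SE 0.17). Cd209b read 4.76 and 4.25 in social threat pools and 5.20 and 5.19 in control pools, close to the median level, where background limits what can be read, and its second probe set was not called (limma adjusted p = 0.131). Ly75 was the gene that rose. It encodes DEC-205, an endocytic receptor known from dendritic cells, and its single probe set read 7.59 and 7.55 in social threat pools against 5.86 and 5.95 in control pools. The difference of 1.67 (SE 0.10, limma adjusted p = 4.01e-06) was opposite in sign to those of Cd209a, Clec10a and 11 of the 12 dendritic cell markers.

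Of 10 measured genes for adaptors and Syk-CARD9 signalling, 2 fell and 0 rose, with a median of -0.04. Fcer1g, the FcR gamma chain used by Dectin-2, Mincle and MCL, read 12.74 and 12.78 in social threat pools and 12.70 and 12.71 in control pools (difference 0.06, SE 0.03, limma adjusted p = 0.199). Tyrobp, the DAP12 chain used by Clec5a, read 13.28 and 13.29 in social threat pools and 13.27 and 13.32 in control pools (difference -0.003, SE 0.02, limma adjusted p = 0.961). Syk itself fell by 0.25 (SE 0.04, limma adjusted p = 0.00356) on its brightest probe set, and 2 of its 4 probe sets were called. Malt1, the protease that works with CARD9 and Bcl10, fell by 0.42 (SE 0.06, limma adjusted p = 0.00152). Of the phosphatases recruited by ITIM receptors, Inpp5d, which encodes SHIP-1, fell by 0.33 (SE 0.06). Ptpn6 and Ptpn11, which encode SHP-1 and SHP-2, had differences of 0.04 (SE 0.03) and -0.10 (SE 0.06) and were not called. As the mean of its 3 probe sets, the difference of Ptpn11 was 0.15, also not called.

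Of 16 measured genes known as targets of Syk-CARD9 signalling, 11 fell and 0 rose, with a median of -0.59. Egr2, a transcription factor induced through NFAT, fell by 1.13 (SE 0.05), and the cytokine genes Il6 and Il12b fell by 1.22 (SE 0.16) and 1.18 (SE 0.19). Il12b read 4.65 and 4.12 in social threat pools and 5.41 and 5.73 in control pools, and Il6 read 4.98 and 4.96 in social threat pools, so background can limit the size of both falls. Ptgs2, the inducible cyclooxygenase, fell by 0.78 (SE 0.04). These genes respond to many other receptors too, and the list's part in lectin signalling was not tested. In the same pools B cell markers had a median of -1.11, T cell markers of -0.96 and NK cell markers of -0.71.

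**Figure D4:**
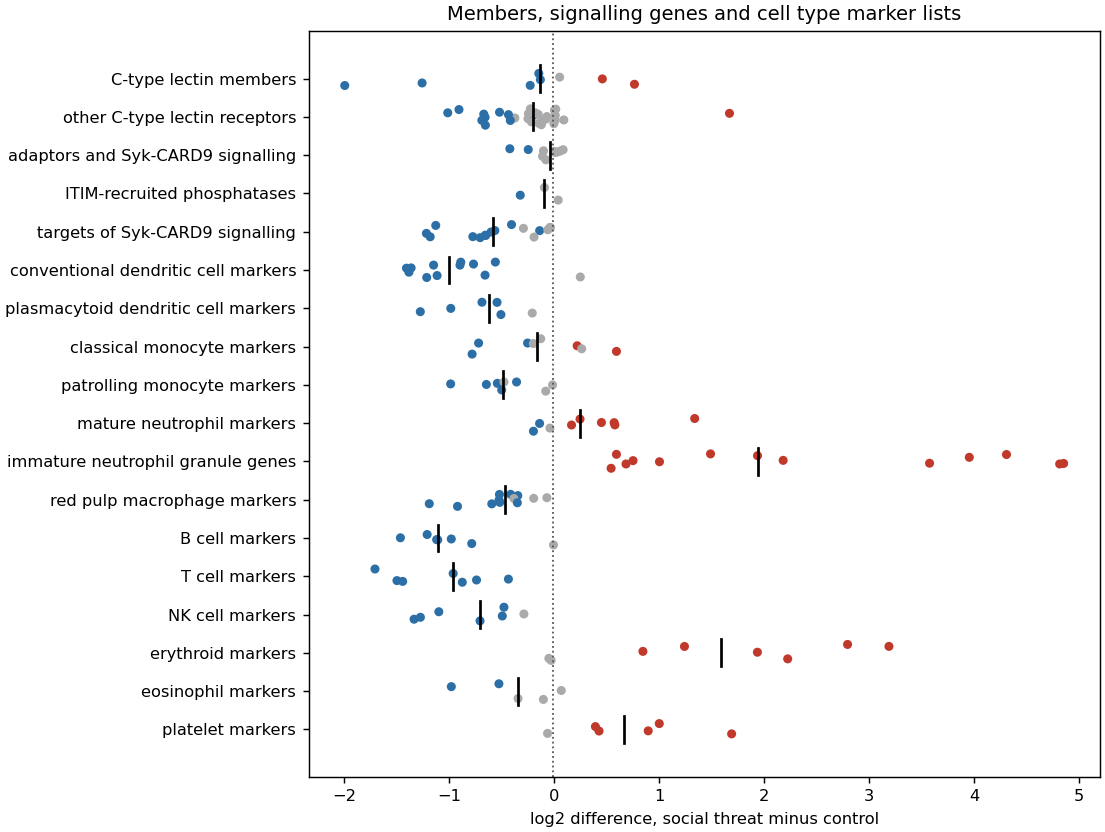
Log2 difference, social threat minus control, of each measured gene (1 point, by its brightest probe set) in the receptor set, in 4 lists of related genes and in 13 cell type marker lists. Red points rose, blue points fell and grey points were not called, black bars are medians and the dotted line is the median of all genes. The receptors spread from -2.00 to 0.76 around a median of -0.14, while dendritic cell markers lie around -1.01 and immature neutrophil genes around 1.94.

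The genes whose pattern over the 4 arrays lay nearest to that of Cd209a were sought among 11036 genes at or above the median level, by the root mean square difference of centred log2 levels. They were Mmp12, the macrophage elastase, at 0.15, and the T cell genes Cd5 and Thy1 at 0.15 and 0.27. Cd5 averaged 4.58 in social threat pools, near the median level. Mmp12 read 5.29 and 5.53 in social threat pools and 7.24 and 7.20 in control pools, and it fell by 1.81 (SE 0.11). Nearest to Clec4a2 were Rpe and Mrpl44, both at 0.01, and P2ry1, a purine receptor gene that read 4.44 and 4.57 in control pools, at 0.02. Rpe read 9.95 and 9.97 in social threat pools and 9.13 and 9.23 in control pools, a rise of 0.78 (SE 0.06). No gene fell further than Cd209a, so its nearest genes all fell by less, and they lay further off than those of Clec4a2. With 4 arrays many genes can share a pattern, and the nearest genes are given as a description.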

How the data were processed

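Log2 expression of CD11b+ splenocytes was taken from the deposited series table, with 1 array per pool of 5 mice. The deposited log2 values were made by the authors with RMA, per the submitters' processing notes; no version is named there. RMA gives no detection calls and compresses differences of dim probe sets. The small number of arrays limits precision. Of 45037 probe sets, the platform annotation gave 34945 a single symbol, 932 several and 9160 none. The groups were compared with limma 3.58.1 under R 4.3.3 (lmFit, eBayes with a mean-variance trend, two-sided, 2 residual and 7.1 prior degrees of freedom). An exact permutation test of 2 against 2 pools cannot go below p = 0.333 and was not used. The labels do not say how the pools were separated, and they name no array batch, so any batch along the group division and the exposure cannot be told apart.

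Each gene was read by its brightest probe set on average. Named genes were all members, Itgam, up to 4 genes of each list (called ones first, by size of difference, then uncalled ones by level), and the 3 genes nearest in pattern to the members with the largest fall and rise. Neighbours in the chromosomal clusters were named by position, and Clec4a3, Clec12b, Clec1a, Clec1b and Olr1 were singled out after their values were seen. Il1r2, Csf3r and Siglech were also named after their values were seen. The members, lists and motifs were chosen with earlier results of these data known. Promoter windows came from RefSeq, and TATAAA lay 40 to 21 bases before the start in 1.87% of plus-strand and 1.86% of minus-strand windows, against 0.435% and 0.381% for the mirrored position. The code was tested on simulated data. Same-numbered pools of the groups did not deviate together (r = 0.05 over probe sets), so the main design has no block.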

Additional observations from a re-analysis of the deposited data

How the results depend on the processing

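The direction of the called members was the same under all 10 alternatives; Clec4e reversed without control replicate 1, to a log2 difference of -0.034, and was called at 0.134 without control replicate 2. Without the variance trend, 4689 probe sets of the table were called, against 7099. The members then had 2 probe sets and 2 genes called lower, and 1 gene called higher. The unmoderated linear model, which rests on 2 residual degrees of freedom for each probe set, called 0 probe sets of the table and 0 of the members in either direction. At an unadjusted p under 0.05 it had 8281 probe sets, 8 of them members. Leaving out each pool in turn gave 3171 to 8721 calls over the table, 3 to 6 member probe sets lower and 3 to 4 higher, and 3 to 5 member genes lower and 2 to 3 higher. A lone pool is then assumed to vary like the other group. With the pool number as a replicate block, 8168 probe sets were called and no member call changed. Quantile normalization gave 4 member genes lower and 2 higher, the filter on dim probe sets 5 and 2, and the mean of all probe sets of a gene 5 and 2. RMA levels near 4.42 cannot be told from background, which touches the size of the differences of Cd209b, Il6, Il12b, Ccr9, Ctsg, Cd5, Hemgn, Rhag, Gp1bb and P2ry1, but no member.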

Other observations

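Other marker lists, not described in full above, also moved. Erythroid markers rose for 6 of 8 measured genes with 0 falls (median 1.59), led by the anion exchanger gene Slc4a1 at 3.19 (SE 0.09; 2.11 as the mean of its 3 probe sets), Hemgn at 2.79 (SE 0.13), Rhag at 2.22 (SE 0.12) and Car2, carbonic anhydrase 2, at 1.93 (SE 0.08). Hemgn and Rhag averaged 3.87 and 3.43 in control pools, below the median level, and Gp1bb, a platelet gene, averaged 4.71 there, so background can set the size of these rises. Platelet markers rose for 5 of 6 (median 0.66), with Gp1bb at 1.69 (SE 0.14; 0.93 as the mean of its 2 probe sets), while Clec1b, the lectin receptor known from platelets, read 8.32 in both social threat pools and 8.54 and 8.40 in control pools and was not called (limma adjusted p = 0.26). Eosinophil markers fell for 2 of 5, Ccr3 by 0.98 (SE 0.09) and Siglecf by 0.53 (SE 0.09). Plasmacytoid dendritic cell markers fell for 5 of 6 (median -0.62), among them Ccr9 by 1.28 (SE 0.18) and Ly6d by 0.99 (SE 0.07). As the mean of its 5 probe sets Ccr9 was not called, at -0.34. Siglech was the gene of that list not called, with a difference of -0.21 (limma adjusted p = 0.295). Ccr9 read 4.53 and 4.42 in social threat pools, at the median level, where background can limit the fall.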
